A study of Mus musculus with 6 samples.

Results

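The 10 genes described here encode matricellular proteins and fibronectin. They were picked by what their products are, by a rule that uses no measured value, although earlier results of these data were known at the time. They were followed in sham-operated and infarcted mouse hearts: osteopontin (*Spp1*), periostin (*Postn*), tenascin C (*Tnc*), the thrombospondins *Thbs1*, *Thbs2* and *Thbs4*, *Sparc*, the CCN proteins *Ccn1* (older name *Cyr61*) and *Ccn2* (older name *Ctgf*), and fibronectin (*Fn1*). Each was found by its NCBI gene number, and all 10 were listed in every library among 17441 genes with a value in any of the 6. All 10 also passed the filter on low values, an FPKM of 1 or more in 2 or more libraries, which left 13120 genes for testing. The study ligated the left anterior descending coronary artery to induce myocardial infarction (MI) and sequenced mRNA from the heart tissue below the ligature. The WT Sham group had the operation without the ligation, the WT MI group had wild-type infarcted hearts, and the *Card9* KO MI group had infarcted hearts from mice lacking CARD9, an adapter protein of innate immune signalling. All mice were male, 12 weeks old and on a C57BL/6 background, all were sampled 3 days after surgery, and each group had 2 libraries. The methods name both littermates and C57BL/6 mice as wild-type controls without assigning them to libraries. Sham-operated hearts of the knockout were not analysed here, and in the comparison of KO MI with WT Sham the effects of genotype and of surgery cannot be told apart.

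Matricellular proteins are secreted into the extracellular matrix but do not build its fibres. They bind integrins, syndecans, growth factors and proteases and so change how cells attach, migrate and signal, and most are low in the healthy adult heart and are made again after injury by fibroblasts, macrophages and other cells. Fibronectin is a structural glycoprotein of the early wound matrix, onto which collagen and several matricellular proteins are laid down.

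The RNA level of the targeted gene did not match the knockout label. The 2 libraries labelled *Card9* KO MI listed *Card9* at FPKM 9.85 and 6.94, above the WT MI pair at 3.39 and 5.08 and the sham pair at 0.99 and 1.03. The gene was thus no lower under the knockout label (log2 fold change 0.85 against WT MI, limma adjusted p = 0.112), and every direction given for that group rests on its label, here called the KO label. The 2 libraries of a group are called a pair, which implies no matching across groups. Which part of the gene the knockout removes was not given in the sources used here, and values over the whole gene cannot show it. RNA values also do not measure the protein. The study includes a western blot of CARD9 in macrophages grown from the bone marrow of wild-type and knockout mice. Values are FPKM, fragments scaled for gene length and library size, and the depth estimated from the spacing of low values was about 3000000 to 4280000 fragments a library. Cardiomyocyte markers were abundant in all libraries, their summed FPKM being 67434 and 68599 in the sham pair, 38653 and 40338 in the WT MI pair, and 33480 and 38268 under the KO label. In bulk tissue, fewer cells of a type and less RNA per cell cannot be told apart. Nothing in the labels ties a library to 1 animal, so the p-values measure the spread between these libraries only, and that spread may be technical.

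Promoter sequence was available for 7 of the 10 genes from RefSeq, on build GRCm38.p6, as the 250 bases before the outermost start of each gene. These 7 were searched on both strands for short letter patterns that transcription factors of wound tissue can bind. TEAD, the DNA-binding partner of YAP, was searched as GGAATG or CATTCC, RUNX as TGTGGT or ACCACA, AP-1 as TGACTCA or TGAGTCA, the TATA pattern as TATAAA or TTTATA, and the binding site of SRF by its name, CArG box. The 4 sequences shown are the promoters of genes that differed most in how they behaved: *Spp1* and *Tnc*, with the largest rises after infarction, *Thbs4*, with the largest ratio between the infarct groups, and *Ccn1*, which moved least. Each is written 5′ to 3′ in the direction of the gene, with matches in capitals.
Spp1, chr5:104434861-104435110, plus strand: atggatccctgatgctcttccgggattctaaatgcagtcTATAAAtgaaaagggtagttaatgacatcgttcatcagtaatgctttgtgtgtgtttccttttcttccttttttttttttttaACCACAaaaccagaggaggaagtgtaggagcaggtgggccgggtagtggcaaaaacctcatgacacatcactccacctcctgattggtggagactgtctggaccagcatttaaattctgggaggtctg
Tnc, chr4:64047016-64047265, minus strand: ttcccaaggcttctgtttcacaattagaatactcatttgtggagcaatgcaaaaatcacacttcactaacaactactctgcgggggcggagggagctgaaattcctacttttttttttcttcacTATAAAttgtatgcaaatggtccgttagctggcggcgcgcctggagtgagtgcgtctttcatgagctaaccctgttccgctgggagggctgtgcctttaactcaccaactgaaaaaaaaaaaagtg
Thbs4, chr13:92794819-92795068, minus strand: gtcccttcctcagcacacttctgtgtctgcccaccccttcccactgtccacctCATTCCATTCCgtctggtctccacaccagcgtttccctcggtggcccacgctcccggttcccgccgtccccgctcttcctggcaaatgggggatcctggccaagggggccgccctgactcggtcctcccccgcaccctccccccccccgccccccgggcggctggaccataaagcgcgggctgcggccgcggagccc
Ccn1, chr3:145649986-145650235, minus strand: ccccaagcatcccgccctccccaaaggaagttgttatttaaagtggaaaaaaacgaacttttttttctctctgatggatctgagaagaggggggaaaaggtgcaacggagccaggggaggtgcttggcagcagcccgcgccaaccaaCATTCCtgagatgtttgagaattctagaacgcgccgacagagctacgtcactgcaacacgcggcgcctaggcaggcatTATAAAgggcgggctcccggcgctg
The capitals are TATAAA and ACCACA (a RUNX pattern) in *Spp1*, TATAAA in *Tnc*, 2 copies of CATTCC that share 1 base in *Thbs4* (a TEAD pattern), and CATTCC followed by TATAAA in *Ccn1*. In *Ccn1* the TATAAA began 25 bases before the start of the gene, whereas in *Spp1* it began 211 bases before and in *Tnc* 126 bases before. A TATA pattern was present in 4 of the 7 promoters (*Ccn1*, *Spp1*, *Thbs2* and *Tnc*) and in 13% of 27025 RefSeq mouse promoters cut the same way. *Postn* had no match before its outermost start but had a TATAAA beginning 26 bases before its other annotated start. *Spp1* and *Tnc* also had another annotated start. That of *Spp1* had no match before it, and for that of *Tnc* the same TATAAA began 205 bases before. A TEAD pattern was present in 2 of 7 and in 12.6% of all promoters, and a RUNX pattern in 1 of 7 and in 14.2%. Neither the AP-1 pattern (4.43% of all promoters) nor the CArG box (1.41%) was found in these windows. A match is a description of letters and not of binding.

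Nearly all of these genes were raised 3 days after infarction. In WT MI against WT Sham, which asks what infarction does in wild-type hearts, 9 of the 10 genes were higher by limma at a Benjamini-Hochberg adjusted p below 0.05 and *Ccn1* was not. None was lower, at the adjusted threshold or at an unadjusted p below 0.05. In this comparison 27.7% of all tested genes were higher and 9.39% lower. Over the 10 genes the median log2 fold change was 2.85, and over all genes 0.19. The highest sham library lay below the lowest WT MI library for all 10 genes, as it did for 48.3% of all genes. Fold changes of group means ran from 1.36 for *Ccn1* to 125 for *Spp1*, and *Spp1* had the largest rise on the log2(FPKM + 1) scale of all 13120 genes. The all-gene share depended on scaling: 3637 genes were higher and 1232 lower as deposited, and 2195 were higher and 2445 lower after quantile normalization, which put the median of all genes at −0.09. The median of the 10 genes was 2.61 under that scaling, and none of their log2 fold changes changed sign.

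The second question is whether the infarcted hearts differed between the genotype labels. In *Card9* KO MI against WT MI, *Postn*, *Thbs4*, *Thbs2*, *Fn1* and *Sparc* were higher under the KO label, and the other 5 genes did not pass. That is 5 of 10, where 0.816% of all tested genes were higher and 0.587% lower. None of the 10 was lower, and none was lower at an unadjusted p below 0.05. All 10 log2 fold changes were above 0, with a median of 0.60 beside 0.04 over all genes, and 8 of the 10 genes had libraries that did not overlap, as 30.8% of all genes did in that direction. The WT MI libraries serve in both comparisons, so the 2 sets of values are not independent of each other. By qPCR at a later day after infarction the study reported *Fn1* higher in the knockout. It also described the genes higher in the knockout in these libraries as related to remodeling of the extracellular matrix. The 5 calls are not independent of that description. These calls rested on all 4 infarct libraries: the count fell from 5 to 0 without WT MI replicate 1 or without *Card9* KO MI replicate 1, to 1 without WT MI replicate 2 and to 3 without *Card9* KO MI replicate 2. It was also 0 without the filter on low values, with 6 of the 10 at an unadjusted p below 0.05. Counts at an unadjusted p are given here and below without the share over all genes. The count of calls was 1 when the variance prior took no account of expression level. All 10 log2 fold changes stayed above 0 when any 1 infarct library was left out. The filter and the prior do not enter a fold change, so its sign was fixed in those fits.

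**Figure D1:**
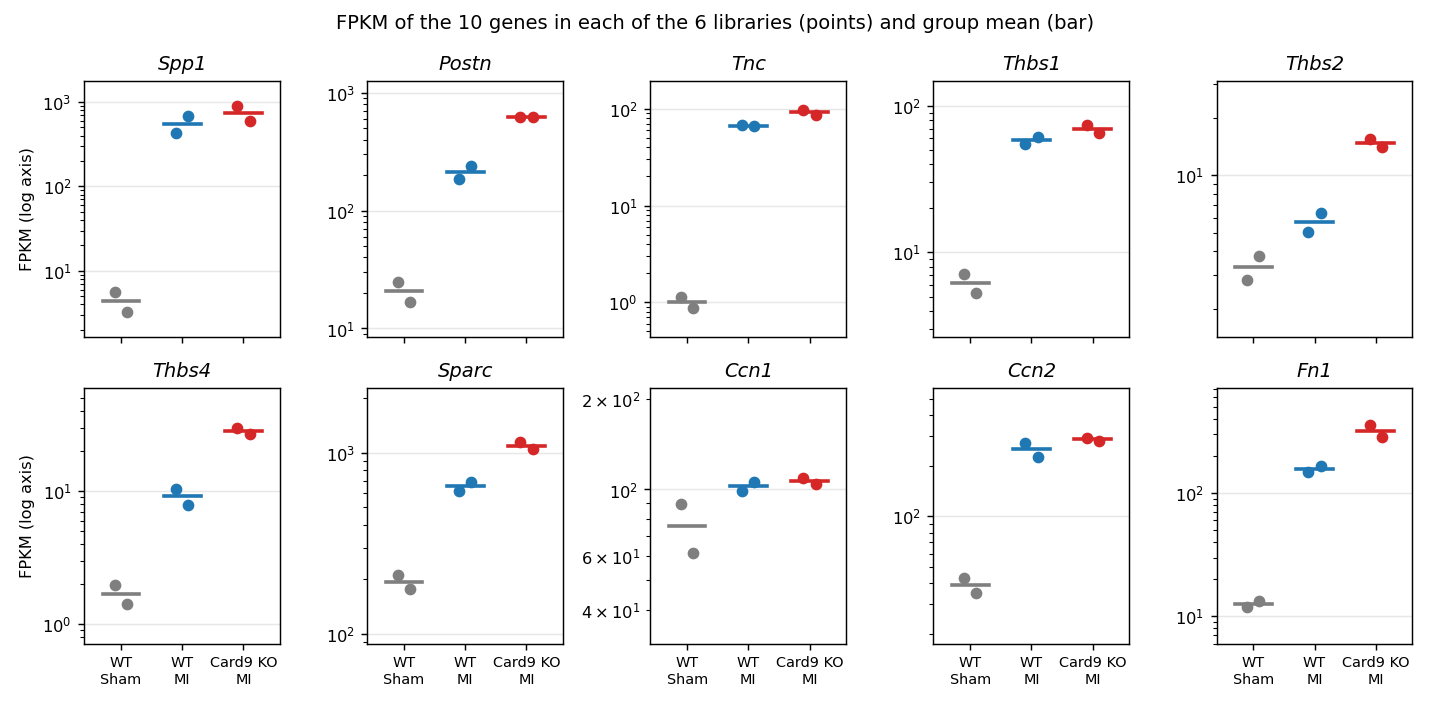
FPKM of each of the 10 genes in the 6 libraries, on a log axis with its own range for each gene; points are libraries and horizontal bars are group means. *Spp1* and *Tnc* show the widest gap between sham and infarct, *Postn*, *Thbs2* and *Thbs4* step up again under the KO label, and the 6 *Ccn1* points lie between 61.7 and 109.

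In the plot of FPKM by gene and library, every sham point lies below every WT MI point. *Postn*, *Thbs2*, *Thbs4*, *Sparc* and *Fn1*, the 5 genes called between the infarct groups, take a second step up under the KO label. *Tnc*, *Thbs1* and *Ccn2* keep the same order without overlap but with a smaller second step, and for *Spp1* and *Ccn1* the infarct groups overlap.

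Osteopontin and periostin are secreted proteins that bind integrins, osteopontin known as a product of macrophages in healing infarcts and periostin as a product of activated fibroblasts. *Spp1* (chr5:104864137-104870069 on mm9, plus strand) was listed at FPKM 5.60 and 3.27 in the sham pair, 434 and 676 in the WT MI pair, and 884 and 603 under the KO label. The 4 infarct libraries were far above both sham libraries, but the infarct groups overlapped, since the second KO MI library lay below the second WT MI library. Group means were 4.44 ± 1.65, 555 ± 171 and 743 ± 199 (SD, n = 2 each). The log2 fold change was 6.68 ± 0.28 (SE) in WT MI against WT Sham (limma adjusted p = 1.2e-05), a 125-fold difference of means. Between the infarct groups it was 0.43, with a 95% interval from −0.22 to 1.08 and a limma adjusted p of 0.444. Its rank by FPKM within a library went from 7547 and 9211 in the sham pair to 161 and 87 with infarction.

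*Postn* (chr3:54165031-54194961, plus strand) was listed at FPKM 24.6 and 16.9 in the sham pair, 184 and 241 in the WT MI pair, and 626 and 627 under the KO label. No groups overlapped, and the last pair were closer together than any other pair for this gene. The group means were 20.7 ± 5.51, 212 ± 40.4 and 626 ± 0.721 (SD, n = 2). It rose 10.2-fold with infarction (log2 fold change 3.30 ± 0.18 SE, limma adjusted p = 3.3e-05), and was a further 2.95-fold higher under the KO label (1.57 ± 0.18, 95% interval 1.14 to 2.00, limma adjusted p = 0.0161). Its place by FPKM moved from 2680 and 3643 in the sham pair to 416 and 317 with infarction and to 90 and 96 under the KO label.

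Tenascin C is a large matrix protein that loosens cell attachment and is found mainly where tissue is being rebuilt. *Tnc* (chr4:63620819-63681760, minus strand) was listed at FPKM 1.14 and 0.87 in WT Sham, an estimated 25.5 and 18.5 fragments, so the sham level carries a wide counting error. It was listed at 67.4 and 66.8 in the WT MI pair and at 96.8 and 86.6 under the KO label. The 3 groups were in the same order without overlap. *Tnc* rose 66.8-fold with infarction (log2 fold change 5.09 ± 0.12 SE, limma adjusted p = 9.9e-07), the eighth largest log2 rise among all genes. The difference between the infarct groups was 1.37-fold, with a log2 interval of 0.16 to 0.72 and a limma adjusted p of 0.111.

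Fibronectin is laid down early in the infarct and is bound by cells through integrins. *Fn1* (chr1:71632094-71699774, minus strand) was listed at FPKM 12.0 and 13.2 in the sham pair, 149 and 165 in the WT MI pair, and 361 and 283 under the KO label. The groups did not overlap, and the spread was widest under the KO label (322 ± 54.7, against 157 ± 11.4 in WT MI and 12.6 ± 0.863 in WT Sham). The rise with infarction was 12.5-fold (log2 fold change 3.54 ± 0.13 SE, limma adjusted p = 7.4e-06), and the further difference was 2.05-fold (1.02 ± 0.13, 95% interval 0.71 to 1.33, limma adjusted p = 0.0213).

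The thrombospondins are multimeric glycoproteins: thrombospondin 1 and 2 share a domain plan, bind CD36 and CD47 and restrain vessel growth, thrombospondin 1 also activates latent TGF-beta, and thrombospondin 4 belongs to the pentameric group. *Thbs1* (chr2:117937612-117952869, plus strand) was listed at FPKM 7.17 and 5.28 in the sham pair, 54.7 and 61.4 in the WT MI pair, and 73.8 and 65.2 under the KO label. *Thbs2* (chr17:14802507-14831269, minus strand) was listed at 2.85 and 3.80, then 5.03 and 6.32, then 15.6 and 14.1. *Thbs4* (chr13:93521545-93564773, minus strand) was listed at 1.96 and 1.43, then 10.4 and 7.81, then 29.99 and 26.7. The groups kept the same order without overlap for each of the 3 genes, but the size of the steps differed.

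*Thbs1* rose 9.33-fold with infarction (log2 fold change 3.04 ± 0.15 SE, limma adjusted p = 2.3e-05) and had a log2 fold change of 0.25 between the infarct groups (95% interval −0.09 to 0.60, limma adjusted p = 0.393). *Thbs2* rose 1.71-fold with infarction (0.63 ± 0.18, limma adjusted p = 0.0265) and was 2.61-fold higher under the KO label (1.25 ± 0.18, 95% interval 0.84 to 1.66, limma adjusted p = 0.0274). *Thbs4* rose 5.38-fold with infarction (1.90 ± 0.18, limma adjusted p = 2.5e-04) and was 3.11-fold higher under the KO label (1.55 ± 0.18, 95% interval 1.13 to 1.97, limma adjusted p = 0.0158). The *Thbs2* call after infarction was the least secure of the 9: it passed in 10 of 17 alternatives, and its limma adjusted p was 0.116 without WT Sham replicate 1 and 0.147 without WT MI replicate 2.

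Within a library the balance of the 3 thrombospondins shifted. The FPKM of *Thbs2* divided by that of *Thbs1* was 0.397 and 0.720 in the sham pair, 0.0919 and 0.103 in the WT MI pair, and 0.211 and 0.216 under the KO label. For *Thbs4* over *Thbs1* the ratio was 0.273 and 0.271, then 0.191 and 0.127, then 0.406 and 0.410. Both ratios were lowest in WT MI, in each library, and the KO-labelled libraries lay between WT MI and sham for *Thbs2* and above sham for *Thbs4*. With 2 libraries against 2, an exact two-sided permutation test of a ratio cannot give a p below 0.333.

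SPARC binds collagen and calcium and is needed for collagen to be assembled into fibres. *Sparc* (chr11:55208002-55233582, minus strand) was listed at FPKM 213 and 177 in the sham pair, 617 and 691 in the WT MI pair, and 1148 and 1049 under the KO label. It had the highest group mean of the 10 genes in every group, and its libraries did not overlap between groups. *Sparc* rose 3.36-fold with infarction (log2 fold change 1.75 ± 0.12 SE, limma adjusted p = 6.3e-05) and was 1.68-fold higher under the KO label (0.75 ± 0.12, 95% interval 0.47 to 1.02, limma adjusted p = 0.0367). The second call passed in 8 of 17 alternatives, the fewest of the 5, with a limma adjusted p between 0.0209 and 0.265.

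CCN1 and CCN2 are related cysteine-rich proteins that bind integrins and heparan sulfate, and their genes are well-known targets of YAP and TEAD. *Ccn1* (chr3:145309935-145312949, minus strand) was listed at FPKM 89.2 and 61.7 in the sham pair, 99.1 and 106 in the WT MI pair, and 109 and 104 under the KO label. *Ccn2* (chr10:24315248-24318489, plus strand) was listed at 43.0 and 35.0, then 273 and 227, then 292 and 282. Sham and infarct did not overlap for either gene, and the 2 infarct groups overlapped for *Ccn1*. *Ccn2* rose 6.41-fold with infarction (log2 fold change 2.65 ± 0.13 SE, limma adjusted p = 2.3e-05), while *Ccn1* had a 1.36-fold difference that did not pass (0.46, 95% interval 0.09 to 0.83, limma adjusted p = 0.0560). The *Ccn1* value turned on the sham libraries, since its log2 fold change was 0.72 without WT Sham replicate 1 (limma adjusted p = 0.00534) and 0.20 without WT Sham replicate 2 (limma adjusted p = 0.255). Neither gene differed detectably between the infarct groups, with log2 intervals of −0.32 to 0.43 for *Ccn1* (limma adjusted p = 0.886) and −0.10 to 0.51 for *Ccn2* (limma adjusted p = 0.429). The ratio of *Ccn2* to *Ccn1* was 0.482 and 0.567 in WT Sham and 2.14 to 2.75 in the 4 infarct libraries, so that the more abundant of the pair was *Ccn1* in sham and *Ccn2* in infarct.

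**Figure D2:**
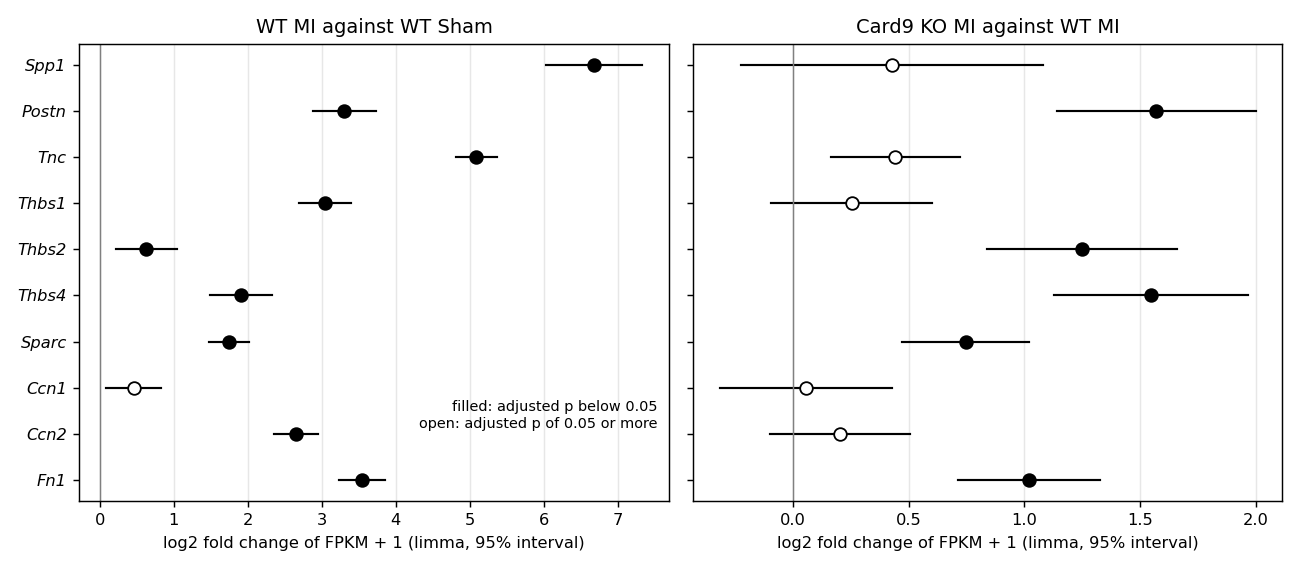
Log2 fold change of FPKM + 1 for each of the 10 genes with its 95% limma interval, in WT MI against WT Sham (left) and *Card9* KO MI against WT MI (right); filled points passed an adjusted p below 0.05, and the 2 axes differ in range. On the left *Spp1* and *Tnc* lie farthest to the right, and on the right *Postn*, *Thbs4*, *Thbs2*, *Fn1* and *Sparc* are filled.

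The plot of log2 fold changes shows that the order of the genes was not shared between the comparisons. *Spp1* and *Tnc*, first and second after infarction, came seventh and sixth between the infarct groups, while *Thbs2*, ninth after infarction, came behind only *Postn* and *Thbs4*. *Card9* KO MI against WT Sham covers both steps together, and all 10 genes were higher, where 34.8% of all genes were higher and 14.3% lower. Their libraries did not overlap, as held for 51.6% of all genes in that direction, and the median log2 fold change was 3.37 beside 0.24 over all genes. The folds of group means were 168 for *Spp1*, 91.3 for *Tnc*, 30.2 for *Postn*, 25.6 for *Fn1*, 16.7 for *Thbs4*, 11.2 for *Thbs1*, 7.36 for *Ccn2*, 5.64 for *Sparc*, 4.46 for *Thbs2* and 1.41 for *Ccn1*. The *Ccn1* call here (log2 fold change 0.52, limma adjusted p = 0.0298) passed in 8 of 17 alternatives, and not without WT Sham replicate 2 or without either *Card9* KO MI library.

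Since FPKM is per length, the 10 genes can also be set against each other and summed. Their summed FPKM was 400 and 318 in the sham pair, 1894 and 2248 in the WT MI pair, and 3635 and 3141 under the KO label. That was 0.0821% and 0.0662% of all FPKM in the sham pair, 0.399% and 0.471% in the WT MI pair, and 0.769% and 0.669% under the KO label. *Sparc* supplied 53.2% and 55.6% of the sum in WT Sham and 30.7% to 33.4% in the infarct libraries. *Ccn1* went from 22.3% and 19.4% to between 2.99% and 5.23%, and *Spp1* from 1.40% and 1.03% to between 19.2% and 30.1%. The share of *Postn* was higher in each successive group, at 6.15% and 5.30%, then 9.70% and 10.7%, then 17.2% and 20.0%.

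**Figure D3:**
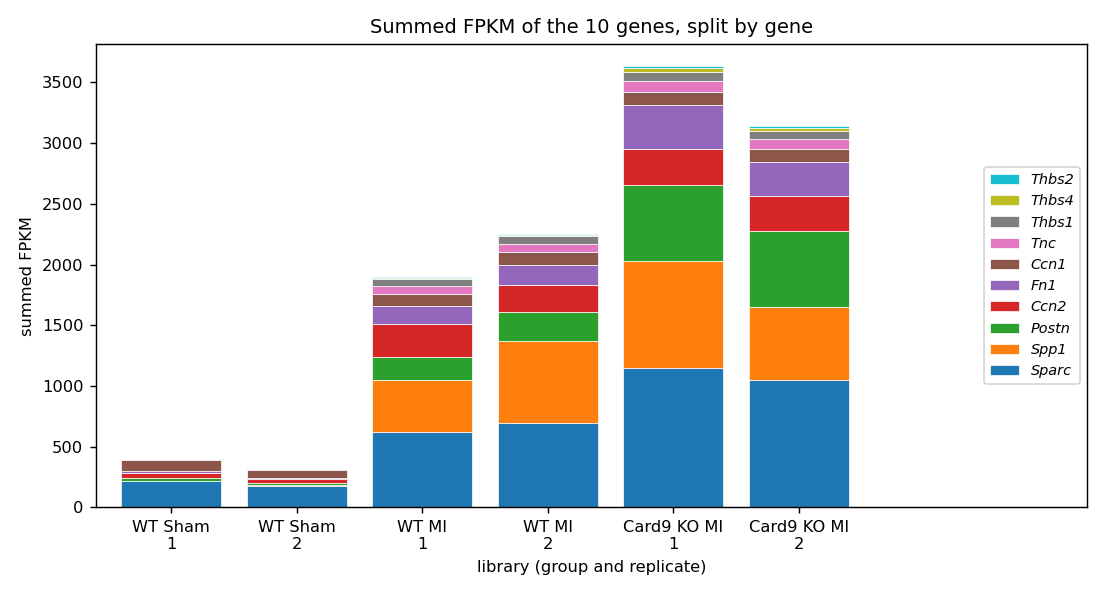
Summed FPKM of the 10 genes in each of the 6 libraries, as stacked bars that start at 0 with 1 colour per gene. The bars reach 318 to 400 in WT Sham, 1894 to 2248 in WT MI and 3141 to 3635 under the KO label, with *Sparc*, *Spp1*, *Postn* and *Fn1* taking most of the last 2 bars.

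In the stacked bars of summed FPKM the composition also changed in order. By group mean the WT Sham order was *Sparc*, *Ccn1*, *Ccn2*, *Postn*, *Fn1*, *Thbs1*, *Spp1*, *Thbs2*, *Thbs4* and *Tnc*. In WT MI it was *Sparc*, *Spp1*, *Ccn2*, *Postn*, *Fn1*, *Ccn1*, *Tnc*, *Thbs1*, *Thbs4* and *Thbs2*, where *Sparc* and *Spp1* overlapped between libraries, as did *Ccn2* and *Postn*. Under the KO label the means of *Postn* and *Fn1* stood above that of *Ccn2*, with *Spp1* overlapping *Postn* and *Fn1* overlapping *Ccn2*. In WT Sham the libraries of *Spp1* overlapped those of *Thbs1* and *Thbs2*. The ratio of *Postn* to *Ccn2*, both known as genes that respond to TGF-beta, was 0.573 and 0.482 in the sham pair, 0.673 and 1.06 in the WT MI pair, and 2.15 and 2.22 under the KO label.

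Relatives of the 10 genes moved with them in part. Of 22 other genes of these families, 14 passed the filter on low values, and with infarction 6 were higher and 2 lower, with a median log2 fold change of 0.56. *Tgfbi*, a relative of periostin, rose by 3.28 on the log2 scale, from 8.58 and 7.48 to 94.8 and 78.5. *Ccn4* rose from 0.44 and 0.39 to 6.53 and 5.56, and *Fstl1*, a secreted relative of SPARC, from 31.7 and 24.6 to 129 and 141. *Vtn*, the adhesion protein vitronectin, fell by 0.82 on the log2 scale, and *Sparcl1*, the closest relative of SPARC, by 0.31. Between the infarct groups 3 of the 14 were higher and none lower, or 1 lower at an unadjusted p below 0.05, with a median of 0.33. *Ccn4* was 13.2 and 12.97 under the KO label (log2 fold change 1.00, limma adjusted p = 0.0388). *Fstl1* was 250 and 236 (0.85, limma adjusted p = 0.0337), and *Sparcl1* was 131 and 131 after 88.5 and 95.7 in WT MI (0.50, limma adjusted p = 0.0472). These 3 calls fell to 0 when any 1 of the 4 infarct libraries was left out, and also with the replicate number as a block.

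Receptors of the 10 proteins changed with infarction, and no change between the infarct groups passed with the main settings. Of 20 tested receptor genes, 14 were higher and 3 lower after infarction, with a median log2 fold change of 1.00. *Itgb2* and *Itgam*, the chains of an integrin of myeloid cells, had log2 fold changes of 3.28 and 3.17, and *Cd44*, a receptor for osteopontin and hyaluronan, of 2.87. *Cd36*, a thrombospondin receptor and fatty acid carrier, fell from 504 and 537 in the sham pair to 404 and 375 in the WT MI pair, *Itgb6* fell by 1.04 on the log2 scale, and *Cacna2d1*, a calcium channel subunit that thrombospondins bind, by 0.50. In *Card9* KO MI against WT MI limma called none of the 20, and at an unadjusted p below 0.05 there were 5 higher and 2 lower, with a median of 0.15. *Cd36* alone was called lower, in 3 of 17 alternatives. A mean FPKM of at least 5 and only genes listed in all libraries gave the call with all 6 libraries fitted. The other left out *Card9* KO MI replicate 2.

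Genes listed as regulators of the 10, from the TGF-beta, YAP and TEAD, and SRF pathways and the RUNX factors, numbered 19, all tested. That they regulate the 10 genes here was not tested. With infarction 10 were higher and none lower (none at an unadjusted p below 0.05 either), with a median log2 fold change of 0.51. *Runx1*, a transcription factor, had a log2 fold change of 2.15, and the ligand genes *Tgfb2* and *Tgfb1* of 1.69 and 1.34. Between the infarct groups 1 of the 19 was higher and none lower at either threshold, with a median of 0.12. That gene was *Tgfb3*, another TGF-beta ligand gene, listed at 8.12 and 6.64 in the sham pair, 12.3 and 13.6 in the WT MI pair, and 34.5 and 31.6 under the KO label (log2 fold change 1.29, limma adjusted p = 0.0115). It was no longer called without the filter on low values, or without WT MI replicate 1, WT MI replicate 2 or *Card9* KO MI replicate 1.

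Enzymes that crosslink or cleave these proteins, with their inhibitors, had the largest median after infarction of the 4 pathway lists. Of 23 tested, 21 were higher and none lower (none at an unadjusted p below 0.05), with a median log2 fold change of 1.83. The collagen crosslinking enzyme gene *Lox* had a log2 fold change of 4.35, and the metalloproteinase gene *Mmp9* of 3.41. Between the infarct groups 1 was higher and 2 lower, with a median of 0.12. *Loxl2*, a relative of *Lox*, was higher under the KO label (47.4 and 56.1, then 85.8 and 79.0, limma adjusted p = 0.0482). *Mmp9* fell by 2.05 on the log2 scale (24.9 and 10.2, then 3.26 and 2.94, limma adjusted p = 0.0451) and *Mmp3* by 1.62 (14.0 and 14.4, then 4.12 and 3.78, limma adjusted p = 0.0171). The study itself drew attention to matrix metalloproteinases in these libraries, so these 2 genes are not independent evidence. It also reported both, and *Mmp2*, as lower in knockout infarcts by qPCR and at the protein level. In these libraries *Mmp2* was not lower. It was listed at 27.2 and 34.7 in the WT MI pair and at 38.1 and 38.2 under the KO label (log2 fold change 0.30, limma adjusted p = 0.251). *Loxl2* was not called when any 1 of the 6 libraries was left out, nor with the replicate block. Neither *Mmp3* nor *Mmp9* was called without WT MI replicate 1 or without either *Card9* KO MI library, and without WT MI replicate 2 only *Mmp9* was. With a sham library left out or with the block, *Mmp3* was called and *Mmp9* was not.

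**Figure D4:**
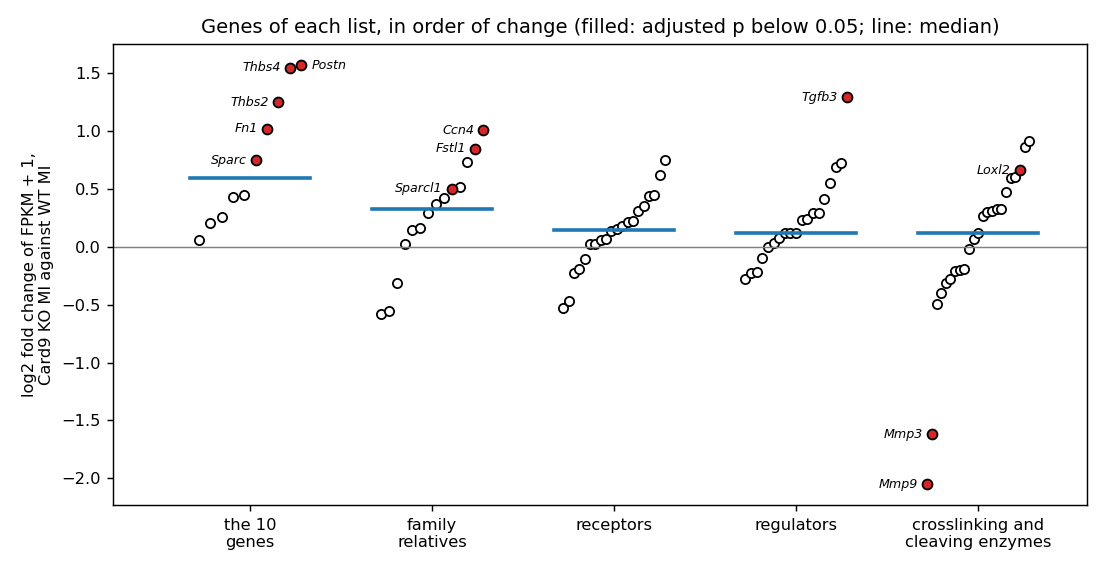
Log2 fold change in *Card9* KO MI against WT MI for each tested gene of 5 lists, sorted within a list; filled points passed an adjusted p below 0.05 and horizontal lines are list medians. The line is at 0.60 for the 10 genes and between 0.12 and 0.33 for the other lists, and the only filled points below 0 are *Mmp3* and *Mmp9*.

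The plot of the 5 lists sets the 10 genes beside their pathway, with no test of the difference between lists. In *Card9* KO MI against WT Sham, 8 of 14 relatives were higher and 2 lower, 15 of 20 receptors higher and 3 lower, 12 of 19 regulators higher and 2 lower, and 20 of 23 enzymes and inhibitors higher and none lower (none at an unadjusted p below 0.05). Of the 7 calls among pathway genes between the infarct groups, 5 lay close to the threshold, with limma adjusted p from 0.0337 to 0.0482.

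Markers of cells known to make these proteins differed between the groups as well. With infarction 9 of 12 fibroblast markers were higher and 1 lower. In the other lists 10 of 11 activated fibroblast markers, 14 of 15 macrophage markers and 7 of 8 tested neutrophil markers were higher and none lower, also at an unadjusted p below 0.05. The summed FPKM of 12 fibroblast markers, none at 0, was 962 to 965 in the sham pair, 1699 to 2157 in the WT MI pair, and 2819 to 2932 under the KO label. The increase of this sum lay mainly in 3 collagen genes, set apart after their values were seen. *Col1a1*, *Col1a2* and *Col3a1* summed to 125 and 116 in the sham pair and 940 and 1295 in the WT MI pair. Under the KO label they summed to 2185 and 2039. The other 9 fibroblast markers together summed to 840 and 846, then 759 and 861, then 747 and 780. That sum does not describe each marker. *Gsn*, the 1 marker lower with infarction, was 412 and 434, then 267 and 255, then 166 and 185. Most markers rose with infarction, and not the collagen genes alone. *Mfap5* was 20.75 and 13.41, then 63.5 and 64.21, then 89.99 and 95.37. *Thy1* was 9.05 and 7.36, then 21.5 and 26.04, then 57.42 and 50.68. None of 11 markers of activated fibroblasts was at 0, and *Lox* and *Comp* of them also stand in a pathway list. The summed FPKM of these 11 was 91.6 to 95.5, then 349 to 352, then 704 to 762. Between the infarct groups 6 of these 11 were higher and all 11 log2 fold changes were above 0 (median 0.82), while of the 12 fibroblast markers *Col1a1*, *Col1a2* and *Thy1* were higher and *Gsn* lower (median 0.44). Without WT MI replicate 1 the activated fibroblast calls fell from 6 to 0, without WT MI replicate 2 to 2, and without *Card9* KO MI replicate 1 or 2 to 1 or 3. The fibroblast calls went from 3 higher and 1 lower to none without WT MI replicate 1 or *Card9* KO MI replicate 1, to 2 higher without WT MI replicate 2, and to 1 higher and 1 lower without *Card9* KO MI replicate 2. Their defining genes did not all move one way: *Acta2* was 117 and 97.2 in WT MI and 252 and 239 under the KO label, *Cthrc1* was 19.8 and 28.8 and then 81.7 and 74.2, and *Pdgfra* was 15.2 and 15.9 and then 10.6 and 10.4. The part of fibroblast number or state in the levels of *Postn*, *Thbs2*, *Thbs4*, *Fn1* and *Sparc* was not tested.

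Macrophage markers (15 genes, none at 0) had a summed FPKM of 426 and 366 in the sham pair, 1570 and 1999 in the WT MI pair, and 3160 and 2282 under the KO label. None of the 15 was called higher and *Arg1* was called lower between the infarct groups (8 higher and 2 lower at an unadjusted p below 0.05, median 0.73). Both parts of that result depended on the processing. The *Arg1* call was lost with an added FPKM of 0.1, without the filter on low values and without a trend in the variance prior. It was also lost when any infarct library was left out. *C1qb* and *Csf1r* were called higher with an added FPKM of 5, with a mean FPKM of at least 5, with only genes listed in all libraries and after quantile normalization. *Fcgr1* was called higher too in each of these but quantile normalization. *C1qc* was called higher with a mean FPKM of at least 5 and with only genes listed in all libraries. Of 11 neutrophil markers, *Ly6g* and *Camp* were at 0 in all libraries and *Ltf* in 4, and the sum was 10.3 and 6.92 in the sham pair, 231 and 101 in the WT MI pair, and 63.6 and 50.3 under the KO label. None of the 8 tested was called between the infarct groups (none higher and 4 lower at an unadjusted p below 0.05), and all 8 log2 fold changes were below 0. Among the alternative fits of all 6 libraries, *S100a9* was called lower with the replicate block. Endothelial markers ranged from 393 to 476 and smooth muscle and pericyte markers from 1515 to 2200 over all libraries, T and B cell markers from 4.83 to 9.70, and erythroid and platelet markers from 400 to 2522. The part of these cell types in the levels of the 10 genes was not tested.

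The genes whose levels followed each of the 10 most closely over the 6 libraries were found by Pearson's r of log2(FPKM + 1), among 8776 tested genes with a mean FPKM of at least 5. These r are descriptions: the 6 points are 3 groups of 2 libraries, so any gene with a like step between groups gives a high value. *Postn* and *Sparc* had the same nearest gene, *Mmp23* (r = 0.999 with *Postn*), which was listed at 3.11 and 2.55 in the sham pair, 8.86 and 10.01 in the WT MI pair, and 16.3 and 15.1 under the KO label. *Fn1* lay nearest to *Crtap*, which takes part in collagen modification (r = 0.999), and *Tnc* to *Btg3*, listed at 0 in both sham libraries, and then to the matrix proteoglycan gene *Vcan* (r = 0.999). *Spp1* lay nearest to the DNA replication gene *Mcm5* (r = 0.999), *Thbs1* to *Cd63*, *Thbs4* to *Ptms* and *Ccn2* to *Cyb5r3*. *Thbs2* and *Ccn1* had looser nearest genes, *Mast3* (r = 0.994), with the chemokine receptor gene *Cx3cr1* second (r = 0.992), and *Mfsd11* (r = 0.997).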

How the data were processed

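The 6 libraries are described by the labels as mouse heart mRNA (poly(A) enriched, TRIzol extraction, Illumina sequencing), 2 in each of 3 groups. The deposited values are FPKM per gene, to 2 decimals and for genes above 0 only. Per the study's methods the authors mapped filtered reads to mm9 with BWA and Bowtie2; the gene annotation and strand setting are not given in the sources used here, so reads of overlapping or antisense genes cannot be told apart. A gene not listed in a library was set to 0.

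The genes were matched by NCBI gene number through RefSeq names; mm9 positions came from GENCODE on that build. FPKM is not a count, so log2(FPKM + 1) was tested with limma 3.58.1 (R 4.3.3; lmFit, eBayes with trend) in 1 fit of the 3 groups, on genes with an FPKM of 1 or more in 2 or more libraries, with Benjamini-Hochberg adjustment over all 13120 and a call at an adjusted p below 0.05. Fold changes on this scale understate those of low genes; folds quoted as such are ratios of mean FPKM. Depth was estimated from the spacing of low FPKM values; 72.0% to 76.2% of low values came out as whole fragments, too few to rebuild counts. On this estimate 3 fragments on a 2 kb transcript correspond to FPKM 0.351 to 0.501, for counting error only. In simulated data of 13120 genes for *Card9* KO MI against WT MI, changes of several sizes were planted in 200 genes. Of these 114 were called, with 6 false calls among the unchanged genes. The simulation drew the spread of each gene from the variance prior of limma itself and held no effect of infarction. It therefore cannot show the error rate in these libraries.

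The 10 genes, the 4 pathway lists and the 9 marker lists were chosen with earlier results of these data known. All 10 were named, with *Card9*, with *Mmp2* because the study reported it, and with the 2 most alike genes of each member. Of each pathway list, up to 3 genes per direction with the largest called and non-overlapping changes were named. 1 gene of a pathway list that met this rule is not reported here. Same-numbered libraries did not deviate together (r = 0.0024, −0.0083 and 0.020 between groups over 13120 genes), so numbers were not taken as pairs. Alternatives varied the added FPKM, the filter, the scaling, the libraries fitted, the variance prior, a replicate block, a fold threshold and each library left out.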

Additional observations from a re-analysis of the deposited data

How the results depend on the processing

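None of the log2 fold changes of the 10 genes changed sign in any of 17 alternatives in any comparison. Alternatives that altered only the filter, the variance prior, the block or the groups fitted leave the fold change as it is. So does leaving out a library of the group not compared. Only the added FPKM, the scaling and a left-out library of a compared group could have changed a sign. In WT MI against WT Sham 8 to 10 of the 10 were called higher throughout, and in *Card9* KO MI against WT Sham 9 or 10. In *Card9* KO MI against WT MI the 5 calls became 0 without a filter on low values, where more genes were tested, and 1 when the variance prior had no trend (the cause was not tested). Leaving out each library in turn gave 0 to 5 calls (0 without WT MI replicate 1 or *Card9* KO MI replicate 1, 1 without WT MI replicate 2, 3 without *Card9* KO MI replicate 2), with the lone library of a group assumed to vary like the others. With the replicate block 4 were called, *Sparc* being the one lost (limma adjusted p = 0.0667), and no other call of the 10 genes changed; the counts were 9 and 10 in the other comparisons. A 2-fold threshold also left 4. *Postn* and *Thbs4* were each called in 13 of 17 alternatives, *Fn1* in 12, *Thbs2* in 11 and *Sparc* in 8. In the same comparison the pathway lists ranged from 0 to 3 relatives higher (main 3), 0 to 1 receptors lower (main 0), 0 to 1 regulators higher (main 1), 0 to 3 enzymes higher (main 1) and 0 to 2 lower (main 2). The relatives were at 0 with the replicate block and when any 1 infarct library was left out. After infarction, lists changed mainly in genes called lower: 0 to 2 relatives (main 2), 1 to 5 receptors (main 3) and 0 to 2 regulators (main 0). Depth limits the sham values of *Spp1*, *Tnc* and *Thbs4*, an estimated 13.7 to 26.5 fragments a library, and so the precision of their fold changes.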
